A study of Mus musculus with 14 samples.

Results

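The non-additive effect of Mesp1-Cre and a deleted Twist1 allele was measured as an interaction in E8.5 mouse embryo heads, taken with 5 to 7 somites: the difference between heads with and without Cre beside a deleted Twist1 allele, minus the same difference beside a wild-type allele. The contrast used all 14 Illumina bead arrays and all 11394 genes that passed the filter on dim probes, which are also all the genes of the series analysed here. All embryos were of a mixed C57Bl/6 x 129 x BALB/c background, and every group, controls included, carried at least 1 floxed Twist1 allele. Control heads were Twist1flox/+; Mesp1+/+ (n = 4), and CM-Het heads were Twist1flox/+; Mesp1Cre/+ (n = 3). Het heads were Twist1flox/del; Mesp1+/+ (n = 3), and CM-CKO heads were Twist1flox/del; Mesp1Cre/+ (n = 4). The deleted allele of Het and CM-CKO heads was present in every tissue, whereas the floxed allele could be lost only in cells with a history of Mesp1-Cre. The labels do not state if a replicate was a single embryo, a litter or a pool, and the p-values therefore describe the spread of these samples, which may be technical.

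Twist1 encodes a basic helix-loop-helix transcription factor that binds E-boxes as a dimer with E proteins and is expressed in head mesenchyme. Mesp1 is switched on transiently in early mesoderm, so that Cre placed at this gene marks the descendants of that mesoderm, among them the cranial mesoderm, the heart and much of the vasculature of the head. Head mesenchyme has a second source, the neural crest, which Mesp1-Cre largely spares. Mesoderm shared these heads with neural tissue, crest, ectoderm and endoderm, and in such bulk samples fewer cells of a type and less RNA per cell cannot be told apart.

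The design placed a limit on the contrast. Beadchip 1 carried all CM-Het and Het arrays. Beadchip 2 carried all Control arrays with CM-CKO 1 and CM-CKO 2, and the remaining pair of CM-CKO arrays was on beadchip 3. The interaction is algebraically the sum of the CM-CKO and Control means minus the sum of the CM-Het and Het means, which is beadchips 2 and 3 against beadchip 1. Interaction and beadchip therefore cannot be told apart by any fit with beadchip as a fixed term. The differences that could be taken within a beadchip were CM-Het minus Het and CM-CKO 1 and 2 minus Control, and CM-CKO 3 and 4 minus CM-CKO 1 and 2 was the difference of beadchips within a genotype. Xist signal was absent on CM-CKO 3 and 4 and present on CM-CKO 1 and 2, so beadchip and Xist signal cannot be told apart in that last difference. Called genes are accordingly described below by how their 4 group means lay.

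Raw median intensity ran from 92.3 to 116 over the arrays (107 to 116 on beadchip 1, 92.3 to 109 on beadchip 2 and 107 to 112 on beadchip 3), and 40.3% to 43.0% of the probes were detected on a single array. All 9 brain markers tested were detected, 8 of them on all 14 arrays, as were all 12 endothelial markers, 10 of them on all arrays. Genes of heart muscle were present too, with the summed level of 8 markers between 10.88 and 14.11 (log2), highest in Control 1. Values below are neqc-normalised log2 signals, a difference of 1 is a 2-fold difference, and a gene is called at an adjusted p under 0.05 over all genes tested.

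Twist1, the targeted gene, was lowest in CM-CKO, at a level close to the sum of the single differences of CM-Het and Het from Control. Its signal was 9.55, 9.17, 9.13 and 9.41 on the 4 Control arrays, 8.60, 8.55 and 8.81 on the CM-Het arrays, 8.46, 8.63 and 8.70 on the Het arrays, and 7.96, 7.68, 7.72 and 7.65 on the CM-CKO arrays. Every CM-CKO array lay below every other array, every Control array lay above every other array, and CM-Het and Het overlapped. The CM-CKO mean was 7.75 ± 0.14 (SD, n = 4) and the Control mean 9.32 ± 0.20 (SD, n = 4), with 8.65 and 8.60 for CM-Het and Het (n = 3 each). Adding the differences of CM-Het and Het from Control predicted 7.93 in CM-CKO, and the interaction was -0.18 (SE 0.16, 95% interval -0.52 to 0.16, limma adjusted p = 0.628). The interval leaves room for a departure of up to 0.52 in the one direction and 0.16 in the other. On the linear scale the prediction was 150 intensity units and the measured mean 216, so the sign of the departure turned with the scale.

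The interaction was called for 114 of 11394 genes (1.00%), of which 31 were higher in CM-CKO than the sum of the single differences (0.272%) and 83 were lower (0.728%). At an unadjusted p under 0.05 the count was 1804 genes (15.8%), and the median interaction of all genes was 0.03. The lowest adjusted p was 0.00466, 8 genes had one under 0.01, and 33 of the 114 had one from 0.04 up. The last gene inside the threshold stood at 0.0496 and the next outside at 0.0518.

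The 114 genes fell into 2 patterns. In 11 genes the CM-CKO mean stood apart from the other 3 group means by more than those 3 differed among themselves, with 4 higher and 7 lower. This shape was about as frequent among all genes, at 1252 of 11394, so its frequency among the called genes is not a result. In the other 103 the CM-Het and Het means lay on one side and the Control and CM-CKO means on the other, with CM-CKO not apart, as in 39.5% of all genes. The patterns are not exclusive by construction, and in 6 of the 11 genes (Bgn, Tgfbr3, Cyp1b1, Gdnf, Emc7 and Nkx6-1) the group means were split by beadchip as well. In 53 of the 103 split genes all 6 arrays of beadchip 1 lay beyond all 8 arrays of beadchips 2 and 3 (12 with the interaction above 0, 41 below), an arrangement found in 0.799% of all genes. In the other 50 only the group means were split (15 above 0, 35 below), a class that was set up after the values were seen. The calls rest on a contrast of beadchips 2 and 3 against beadchip 1. They favour split genes by construction, so the excess over all genes is a description and not a result.

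The 2 patterns differed in the comparisons that a shift between beadchips 1 and 2 leaves untouched, which is a description, since the shape was read from the same values. CM-CKO differed from Control by a median size of 1.27 in the 11 genes with CM-CKO apart, by 0.108 in the 103 split genes and by 0.0963 in all genes. The ranges overlapped, with sizes from 0.357 to 2.19 in the 11 genes and from 0.00126 to 0.606 in the 103. CM-Het differed from Het by a median size of 0.130, 0.0853 and 0.0834 in the same sets. CM-CKO 3 and 4 differed from CM-CKO 1 and 2 by 0.0668, 0.0933 and 0.110, and lay further in the direction of the interaction in 6 of the 11 genes and 34 of the 103.

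**Figure D1:**
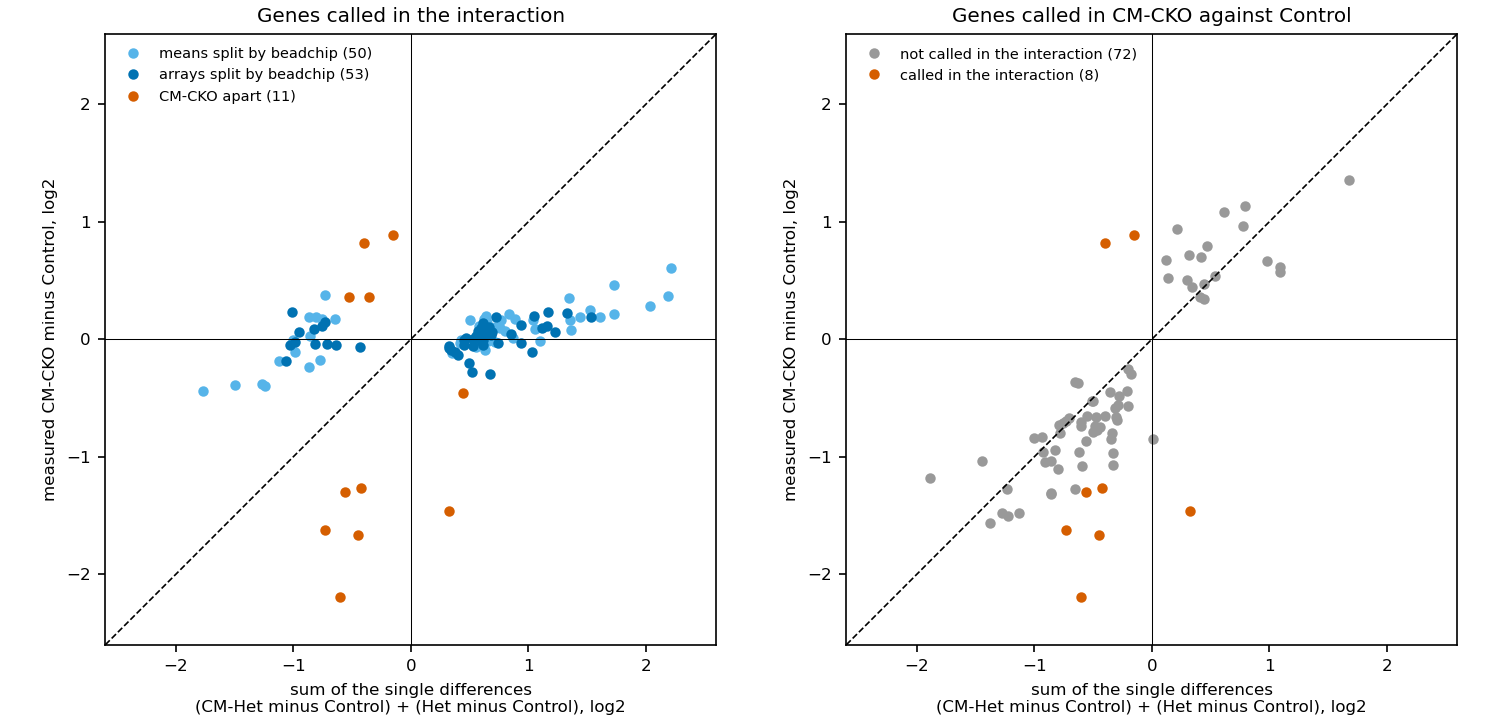
Measured difference of CM-CKO from Control (vertical axis, log2) against the sum of the differences of CM-Het and Het from Control (horizontal axis, log2), with 1 point per gene and a dashed line where both are equal. On the left are the 114 genes called in the interaction, coloured by pattern. The 103 split genes lie up to 0.606 from the horizontal line at 0, while 7 of the 11 genes with CM-CKO apart lie far below it or the diagonal. On the right are the 80 genes called in CM-CKO against Control, 63 of them further from 0 than the sum predicts.

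Among the 7 genes that fell below the sum of the single differences with CM-CKO apart, 3 encode matrix proteins and 1 a transcription factor of mesenchyme. Bgn encodes biglycan and Lum lumican, both small leucine-rich proteoglycans that bind collagen. Ebf3 encodes an early B-cell factor expressed in head mesenchyme. Tgfbi encodes a matrix protein induced by TGF-beta, Tgfbr3 the co-receptor betaglycan, Cd248 the mesenchymal surface protein endosialin, and Vegfc a ligand that drives growth of lymphatic vessels.

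The 4 genes that rose above the sum were Cyp1b1, a cytochrome P450 that can oxidise retinoids, Gdnf, a neurotrophic factor that signals through Ret, Nkx6-1, a homeobox gene of the ventral neural tube, and Emc7, a subunit of the endoplasmic reticulum membrane protein complex.

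Because Twist1 is known to bind E-boxes, the promoters of these genes are shown as the sequence context of the genes with CM-CKO apart. RefSeq promoters (250 bases before to 50 after the start, GRCm38.p6) were matched for 8 of the 11 genes, 9 promoters in all. The 4 printed are those of the 2 falling genes with the lowest adjusted p that matched and of the 2 rising genes with the largest interaction, each written 5′ to 3′ on the gene's own strand, with E-boxes (CANNTG, which reads the same on both strands) in capitals. They lie at chrX:73483351-73483650 (plus strand), chr7:137314396-137314695 (minus strand), chr17:79715012-79715311 (minus strand) and, for the first of 2 listed Gdnf starts, chr15:7809798-7810097 (plus strand).
Bgn: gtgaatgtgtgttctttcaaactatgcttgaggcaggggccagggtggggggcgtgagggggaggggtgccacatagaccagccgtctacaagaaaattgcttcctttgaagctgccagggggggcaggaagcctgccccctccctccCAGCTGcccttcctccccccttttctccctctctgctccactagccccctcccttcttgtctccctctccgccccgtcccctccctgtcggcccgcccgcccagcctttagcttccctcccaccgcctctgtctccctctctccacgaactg
Ebf3: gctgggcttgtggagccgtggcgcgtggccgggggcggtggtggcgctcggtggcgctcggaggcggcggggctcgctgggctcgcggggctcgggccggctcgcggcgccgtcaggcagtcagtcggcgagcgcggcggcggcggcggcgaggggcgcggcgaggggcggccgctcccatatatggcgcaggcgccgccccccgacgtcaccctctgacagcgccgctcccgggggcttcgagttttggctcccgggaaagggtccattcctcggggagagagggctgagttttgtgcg
Cyp1b1: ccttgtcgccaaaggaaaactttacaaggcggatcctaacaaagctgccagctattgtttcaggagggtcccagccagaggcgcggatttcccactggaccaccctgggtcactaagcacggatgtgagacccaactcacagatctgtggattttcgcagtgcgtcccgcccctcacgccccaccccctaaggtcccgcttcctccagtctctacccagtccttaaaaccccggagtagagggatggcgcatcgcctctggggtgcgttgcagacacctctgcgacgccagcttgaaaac
Gdnf: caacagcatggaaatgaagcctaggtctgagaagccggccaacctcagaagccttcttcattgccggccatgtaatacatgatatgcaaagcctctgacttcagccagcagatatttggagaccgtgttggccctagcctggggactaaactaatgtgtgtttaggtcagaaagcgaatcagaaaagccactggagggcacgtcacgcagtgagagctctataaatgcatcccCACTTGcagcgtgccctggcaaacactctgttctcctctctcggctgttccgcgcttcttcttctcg

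The Bgn promoter holds 1 E-box, CAGCTG, and each of the 2 Gdnf promoters holds 1, whereas those of Ebf3, Cyp1b1, Emc7, Nkx6-1, Tgfbi and Vegfc hold none in this window. In all, 3 of the 9 promoters held an E-box (33.3%), against 64.3% of the promoters of all genes tested and 62.3% of those of the split genes. The E-box CATATG was in 0 of the 9 and in 1.83% of the promoters of all genes tested. These counts describe the letters of the windows only.

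Bgn had the largest interaction of these genes. Its signal was 8.30, 8.38, 8.54 and 8.23 on the Control arrays, 8.42, 8.42 and 8.30 in CM-Het, 8.76, 8.91 and 8.36 in Het, and 7.38, 6.55, 7.02 and 6.65 in CM-CKO. All 4 CM-CKO arrays lay below the 10 others, and the other 3 groups overlapped. CM-CKO had a mean of 6.90 ± 0.38 (SD, n = 4) where the sum of the single differences predicted 8.69, an interaction of -1.79 (SE 0.24, limma adjusted p = 0.00466), or 3.47-fold. CM-CKO differed from Het by -1.78 (adjusted p = 1.77e-05) and CM-Het from Control by 0.02 (adjusted p = 0.974).

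Lum fell further, down to the background. It measured 6.68, 7.08, 7.14 and 6.86 in Control, 6.52, 6.32 and 6.58 in CM-Het, 6.87, 6.80 and 6.77 in Het, and 4.44, 4.64, 4.81 and 5.10 in CM-CKO, where 2 of 4 arrays were above background. Each of the CM-CKO arrays lay below all the others. The measured mean of 4.75 ± 0.28 (SD, n = 4) stood against a prediction of 6.34, an interaction of -1.59 (SE 0.22, adjusted p = 0.00492). CM-CKO differed from Het by -2.06 and CM-Het from Control by -0.47, and the latter was not called (adjusted p = 0.164).

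Ebf3 was the transcription factor with an interaction called among 23 head mesenchyme factors tested. Its signal ran from 8.17 to 8.39 on the Control arrays, from 7.89 to 8.12 in CM-Het and from 7.93 to 8.20 in Het, and measured 6.76, 6.36, 6.66 and 6.69 in CM-CKO. The gap between CM-CKO and the lowest other array was thus wider than the spread of the 10 others. Its interaction was -1.22 (SE 0.16, adjusted p = 0.00466), with 6.62 ± 0.18 (SD, n = 4) measured and 7.83 predicted.

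Bgn, Lum and Ebf3 remained called under each alternative on the log2 scale that tested them, with the 2 CM-CKO arrays of either beadchip left out and with each array left out in turn; Lum was not tested where detection on all 14 arrays was required. Without each array in turn, the interaction of Bgn lay between -1.95 and -1.68, that of Lum between -1.71 and -1.49 and that of Ebf3 between -1.29 and -1.13. On the linear scale of intensity, Bgn (adjusted p = 0.0127), Ebf3 (0.0461), Cyp1b1 (0.0135) and Emc7 (0.0485) remained called, and the call was lost for Lum (0.0601), Gdnf (0.0579), Nkx6-1 (0.0657), Tgfbr3 (0.0687), Tgfbi (0.109), Vegfc (0.181) and Cd248 (0.414). Within beadchip 2, CM-CKO 1 and 2 differed from Control by -1.40 for Bgn, -2.40 for Lum, -1.72 for Ebf3 and -1.66 for Cd248, all called. Cyp1b1 (0.79, limma adjusted p = 0.140) and Gdnf (0.73, adjusted p = 0.118) were not called in that comparison. Only 6 of the 114 genes were, against 27 of all 11394 genes, and the comparison shares its arrays with the interaction.

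The other 4 falling genes had interactions from -0.90 to -0.74. Tgfbi stood at 7.09 ± 0.09 (SD, n = 4) in CM-CKO against a prediction of 7.93, with an interaction of -0.85 (SE 0.15, adjusted p = 0.0175) that lost the call without CM-Het 1 or without Het 2. The CM-Het and Het means of Tgfbr3 (8.15 and 8.24) were above its Control mean (7.97) and its CM-CKO mean (7.51) below it, with an interaction of -0.90 (adjusted p = 0.0343). Its CM-CKO arrays ran from 7.37 to 7.68 and its Control arrays from 7.78 to 8.32, and the call was lost without any 1 of 10 of the 14 arrays. Cd248 had 6.20 measured and 7.09 predicted (-0.89, adjusted p = 0.0495) and Vegfc 7.12 and 7.86 (-0.74, adjusted p = 0.0475), so that both were just inside the threshold and lost the call without any 1 of 12 of the 14 arrays.

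Cyp1b1 and Gdnf were the rising genes that also differed from each other genotype. Cyp1b1 measured 5.01, 4.56, 5.06 and 5.40 in Control, 4.76, 4.79 and 4.68 in CM-Het, 4.64, 5.03 and 4.96 in Het, and 5.85, 5.75, 5.95 and 5.76 in CM-CKO. All CM-CKO arrays lay above the rest, and the gene was above background on all 4 of them but on 2 of 3 arrays in each of CM-Het and Het. The interaction was 1.22 (SE 0.23, adjusted p = 0.0221), with 4.61 predicted from the sum, a level below the lowest detected signal of any array (4.70). The call was lost without CM-Het 1, CM-Het 3 or Het 1, without the CM-CKO arrays of either beadchip, with the replicate block and without the arrays that lack Xist signal.

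Gdnf measured 5.57, 5.16, 5.59 and 5.59 in Control, 5.34, 5.37 and 5.51 in CM-Het, 5.37, 5.52 and 5.28 in Het, and 6.15, 6.25, 6.77 and 6.29 in CM-CKO. The CM-CKO arrays were again above all others. Its interaction was 1.04 (SE 0.22, adjusted p = 0.0339). CM-CKO differed from Het by 0.98 and CM-Het from Control by -0.07. The call was lost without any 1 of 9 arrays, among them all CM-Het and Het arrays, and under 6 of 14 other alternatives. Nkx6-1 (0.72, adjusted p = 0.0421) and Emc7 (0.89, adjusted p = 0.0479) had smaller CM-CKO differences from Control, 0.36 each, and lost the call when any 1 of 13 arrays was left out.

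For 3 of the 11 genes a second detected probe existed, of Ebf3, Lum and Tgfbi, and all 3 had an interaction of the same sign. It was -0.43 for Lum and -0.51 for Tgfbi, both at an unadjusted p under 0.05, and -0.06 for Ebf3. All 3 second probes were dim, with means of 5.31 for Lum, 5.42 for Tgfbi and 5.36 for Ebf3.

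**Figure D2:**
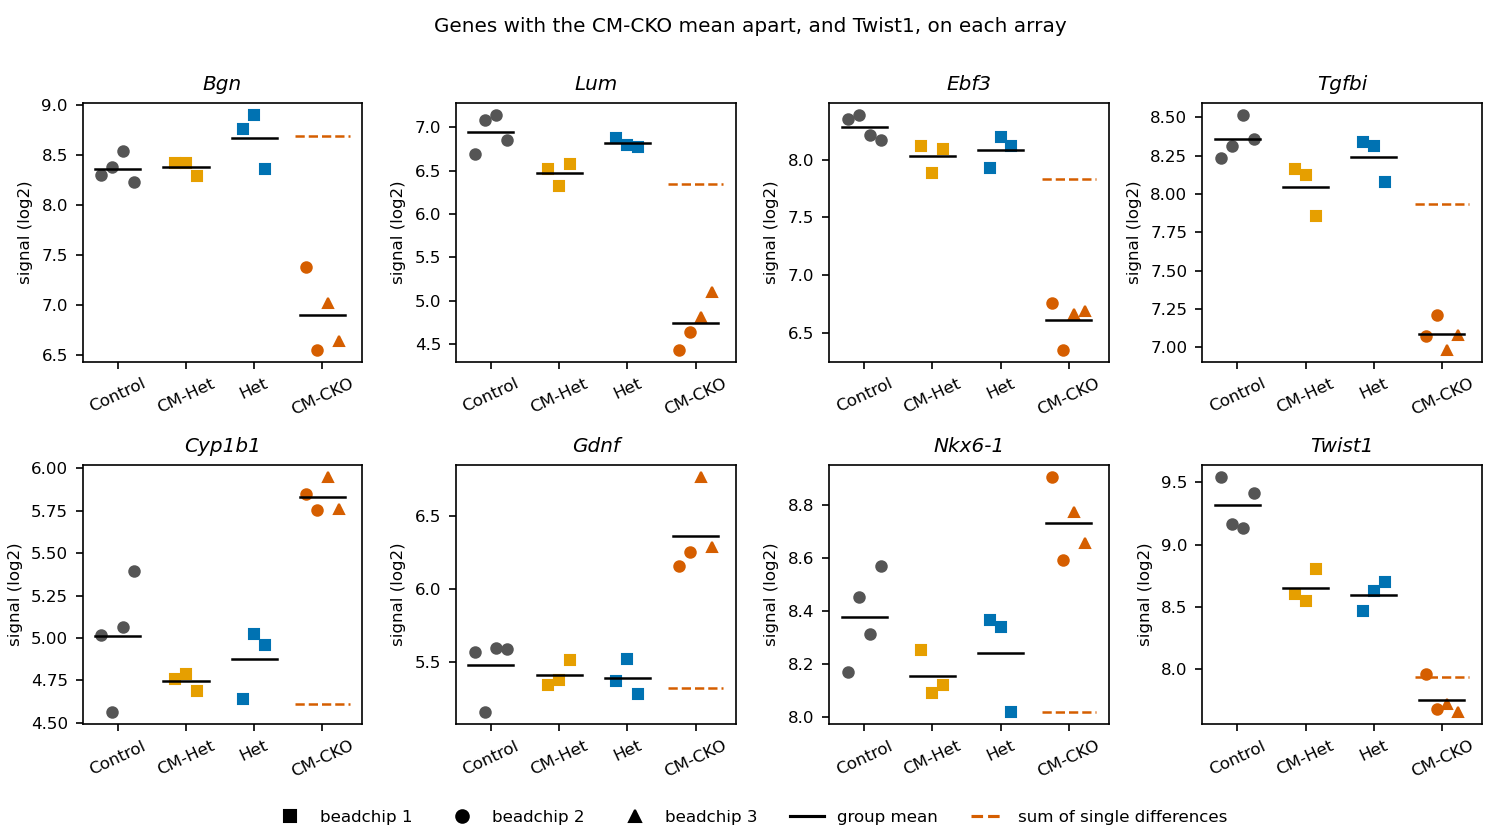
Log2 signal on each of the 14 arrays for 7 genes with the CM-CKO mean apart and for Twist1 (vertical axes differ between panels and do not start at 0). Marker shape gives the beadchip, the black line the group mean and the dashed line the CM-CKO level that the sum of the single differences predicts; in Bgn, Lum, Ebf3 and Tgfbi the 4 CM-CKO arrays of both beadchips lie below the dashed line, while in Twist1 they lie close to it.

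CM-CKO was called against each of the other 3 genotypes for 13 genes (0.114% of those tested), 10 lower and 3 higher. The interaction was called for 8 of the 13, against 1.00% of all genes. The 13 were selected on the means that enter the interaction, so this share is a description and not a result. The other 5 of the 13 were Twist1, Col23a1, Col26a1, Snai2 and Pou4f1. Snai2, which encodes a zinc-finger factor of epithelial-mesenchymal transition, had an interaction of -0.62 (SE 0.18, adjusted p = 0.103), and Col23a1, a transmembrane collagen, one of -0.74 (SE 0.22, adjusted p = 0.110). Col26a1 had -0.30 (adjusted p = 0.293). Pou4f1, a POU factor of sensory neurons, had an interaction of 0.72 (SE 0.22, adjusted p = 0.122). The intervals of these 4 genes excluded 0 before adjustment, and none passed over all genes.

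Of the 80 genes called in CM-CKO against Control (0.702%), 8 were called in the interaction and 59 had a 95% interval of it that held 0. An interval that holds 0 does not show that the differences add up. The interaction had the sign of the CM-CKO difference in 63 of the 80, with a median of -0.25 over the 59 genes called lower and 0.20 over the 21 called higher. In 16 of the other 21 genes the CM-CKO difference was larger than the sum, and in 5 it was smaller. These 80 genes were selected on 2 of the 4 means that enter the interaction, so the larger share is given as a description. Over the genes called lower, the median difference from Control was -0.35 in CM-Het, -0.22 in Het and -0.83 in CM-CKO, and over those called higher it was 0.27, 0.14 and 0.67; the 3 comparisons share the Control arrays.

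Genes of this group, named after their values were seen, show how close the sum could come. Itga9, an integrin subunit, had a Control mean of 8.94 ± 0.17 (SD, n = 4), means of 8.54 ± 0.07 and 8.56 ± 0.07 (SD, n = 3 each) in CM-Het and Het, and a CM-CKO mean of 8.14 ± 0.07 (SD, n = 4) against a prediction of 8.16. Its interaction was -0.01, with an interval from -0.29 to 0.26. Pdgfra, the PDGF receptor of mesenchyme, had an interaction of 0.04 (interval -0.40 to 0.47), and Igfbp5, which binds insulin-like growth factors and rose in CM-CKO by 0.54, one of -0.00 (-0.26 to 0.26). Trh, the precursor of thyrotropin-releasing hormone, rose in CM-CKO by 1.14 with an interaction of 0.34 (-0.18 to 0.86).

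Low signal limited some of these values. Alx4, a homeobox gene of craniofacial mesenchyme, fell by 1.48 in CM-CKO with an interaction of -0.20 (-0.76 to 0.36), with 3 of the 4 CM-CKO arrays above background. Col6a1, a collagen VI chain, had an interaction of 0.71 opposite to its fall (0.20 to 1.22, adjusted p = 0.165), and its prediction of 4.60 lay under the lowest detected signal of any array (4.70). Of all genes, 1128 had a prediction below that level, among them 8 of the 114 called. For Mybphl, Cpa1, Mog and Ldb3 it lay even below the lowest signal of any gene on any array (4.18), so CM-CKO could not have reached it. For 14 of the 114, a group had no array above background, which leaves only a bound there.

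The split genes were led by replication-type histones, genes whose transcripts lack a poly(A) tail and are made in S phase. Of 45 such histone genes tested, 39 had an interaction below 0 and 6 above, 28 were at an unadjusted p under 0.05, and 8 were called, all lower. The median was -0.66, against 0.03 over all genes. Of all genes, 45.0% lay below 0, 15.8% were at an unadjusted p under 0.05 in limma and 1.00% were called. Leaving out each array in turn, the median ranged from -0.76 to -0.43, the latter without CM-Het 1, the array with the highest mean histone level (9.40).

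H2bc21, an H2B gene, had the lowest adjusted p of them. It measured 9.22, 9.01, 9.31 and 9.09 in Control, 10.42, 9.64 and 9.74 in CM-Het, 9.85, 10.11 and 10.03 in Het, and 9.20, 9.26, 9.65 and 9.29 in CM-CKO. Control and CM-CKO overlapped, as did CM-Het and Het, and the 2 pairs met at 9.64 and 9.65. The interaction was -1.42 (SE 0.21, adjusted p = 0.00650), the difference between CM-CKO and Control 0.19, and that between CM-Het and Het -0.06.

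H4c12 (-1.81), H2bc18 (-1.61), H2bc15 (-1.35), H4c1 (-1.28), H4c8 (-1.26), H3c7 (-1.19) and H4c11 (-1.04) were the other list members called, and H2ac19 (-1.27), which is not in the list, was called as well. A second probe of H4c12, with a mean of 7.07, gave -2.00, but second probes of H2bc21 and H3c7 gave 0.42 and 0.99. These last 2 probes had means of 5.51 and 6.14, and neither was at an unadjusted p under 0.05 in limma. Histone genes of a class have near-identical copies, so a probe may read more than 1 of them. The cell division list of 18 genes, which includes Pcna (0.53) and Rrm2 (-0.29), had a median of 0.08 and 0 genes called, with 4 at an unadjusted p under 0.05.

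Mitochondrial genes went both ways. Of 67 genes of the respiratory chain tested, 39 were above 0 and 28 below, with a median of 0.03. In limma 4 were called (5.97%, against 1.00% of all genes), and 16 were at an unadjusted p under 0.05, against 15.8% of all genes. Cox7b (1.05) and Ndufb4 (1.11) were higher and Ndufa6 (-0.46) and Cycs (-0.47) lower, but the other probes of Cycs gave 0.17 and 0.44. Those probes had means of 5.76 and 6.22, and neither was at an unadjusted p under 0.05 in limma. ND5, encoded by the mitochondrial genome and not in the list, had -1.75 (SE 0.41, adjusted p = 0.0496), and in it CM-CKO 3 and 4 lay 0.97 below CM-CKO 1 and 2.

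Outside these lists, the genes with the largest interaction above 0 included Vps4b, an ATPase of the ESCRT machinery, and Jag1, a NOTCH ligand. Vps4b measured 5.61 to 5.85 in Control and 5.76 to 6.10 in CM-CKO, against 4.99 to 5.20 in CM-Het and 5.10 to 5.48 in Het, an interaction of 1.25 (SE 0.19, adjusted p = 0.00650). All beadchip 1 arrays were below all others. Jag1 had the same arrangement, with 5.22 to 5.69 on beadchip 1 and 5.77 to 6.12 elsewhere (0.92, SE 0.18, adjusted p = 0.0292). Itga6, the laminin receptor subunit, had 1.00 (adjusted p = 0.0318), Nkx6-2 1.00, Rbm14 0.96 and Pik3ip1 1.02.

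The most precise split genes, named after their values were seen, had small differences and tight replicates. Idh2, the mitochondrial isocitrate dehydrogenase, measured 10.45 ± 0.09 (SD, n = 4) in Control and 10.41 ± 0.15 (n = 4) in CM-CKO, against 10.01 ± 0.06 (n = 3) in CM-Het and 10.08 ± 0.05 (n = 3) in Het (interaction 0.78, adjusted p = 0.00589). Aamp ran from 11.47 to 11.54 on beadchip 1 and from 11.17 to 11.37 on the others (-0.50, adjusted p = 0.00650). P4ha2, a prolyl hydroxylase subunit of collagen synthesis, had -0.96 (adjusted p = 0.0101), and its second probe gave -0.72. Mcm7, a subunit of the replicative helicase, had -0.59, Sall4, a zinc-finger factor of pluripotent cells, -0.63, and Myh9, a non-muscle myosin heavy chain, -0.65. A second probe of Mcm7 gave -0.44, whereas the other probes of Sall4 gave 0.08 and 0.23, opposite in sign.

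**Figure D3:**
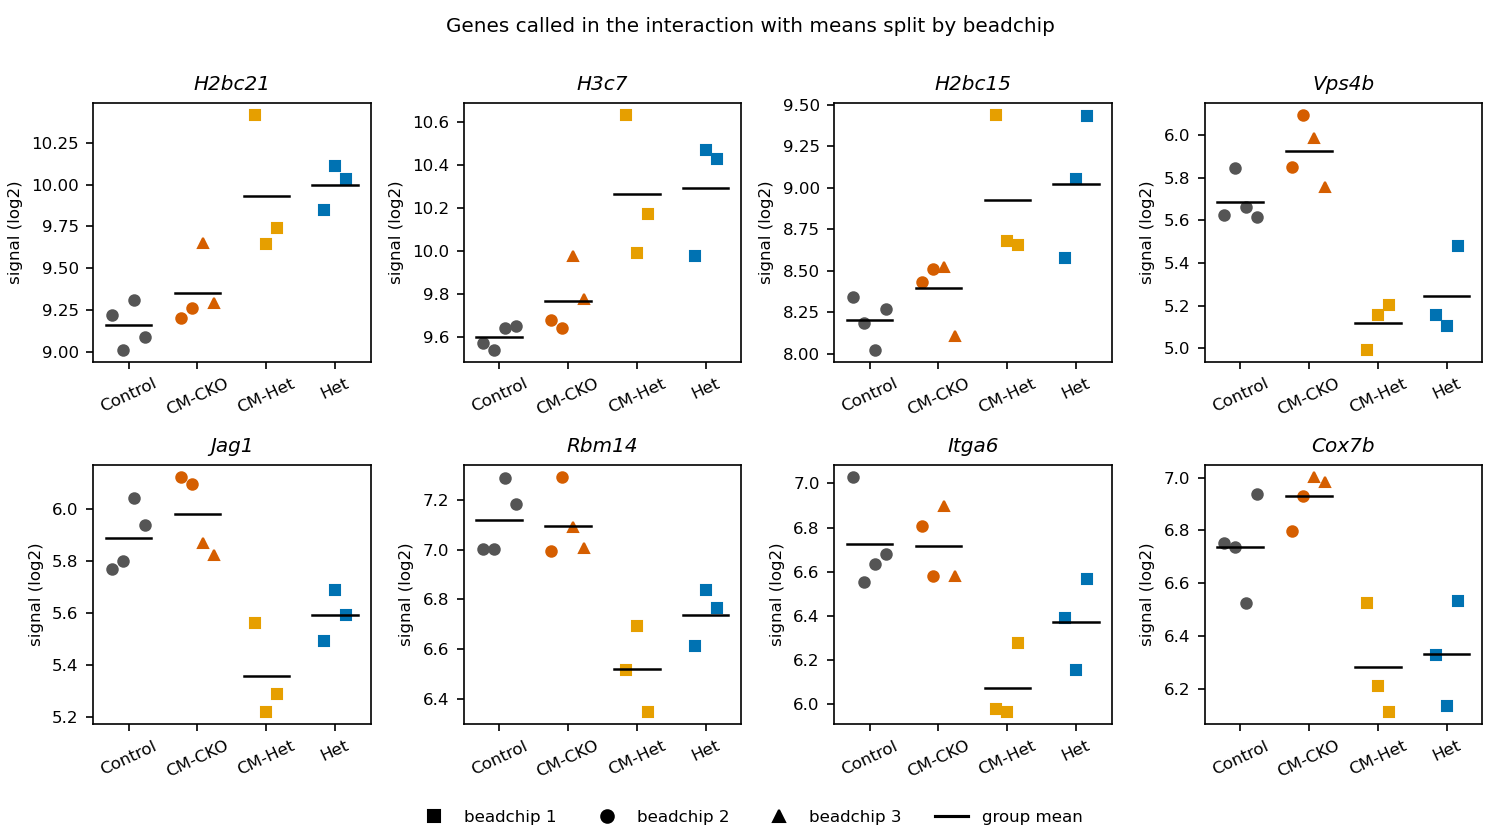
Log2 signal on each of the 14 arrays for 8 of the 103 split genes, with the groups ordered by beadchip (vertical axes differ between panels and do not start at 0). The means of the 2 groups on beadchip 1 (squares) lie to one side of the means of Control and CM-CKO (circles and triangles), and the CM-CKO arrays overlap the Control arrays in each panel.

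The brightest probe of a gene was set against its other detected probes. The 45 split genes with another detected probe had 60 such probes, of which 28 had an interaction of the same sign as the brightest probe, 9 of them and 7 of the opposing ones at an unadjusted p under 0.05. Over all genes, 3573 of 6597 other probes had the same sign (54.2%). Itga6 (-0.64 for a second probe) and Rbm14 (-0.73) were among the split genes whose probes disagreed. For the genes called in CM-CKO against Control, 35 of 39 other probes had the sign of the CM-CKO difference. That count is of another contrast, on which these genes were selected, so it cannot be set against the interaction shares above.

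Heart muscle genes had the largest list median. All 15 tested were above 0, with a median of 1.61 and a range from 0.53 to 2.31. Of these, 4 were at an unadjusted p under 0.05, against 15.8% of all genes, and 0 were called. The mean heart muscle level was 9.58 in Control 1 and 9.21 in Control 3 but 7.40 and 7.20 in Control 2 and 4, ran from 7.20 to 7.36 in CM-Het, measured 7.16, 6.94 and 8.28 in Het, and ran from 6.96 to 8.82 in CM-CKO. The spread within Control was thus larger than the difference of any 2 group means, and the list median fell to 1.11 without Control 1. Mybphl (1.33) and Ldb3 (0.93), muscle genes outside the list, were called and were above background on none of the 6 CM-Het and Het arrays. Among the Control arrays, Ldb3 was highest on Control 4 (5.22, against 5.02 on the others), the Control array with the lowest heart muscle level (7.20). A second probe of Ldb3 gave -0.13. With the heart muscle level as a covariate, 70 genes were called, 49 of them among the 114, and 8 of the 11 genes with CM-CKO apart were among those 49; Gdnf, Emc7 and Vegfc were not.

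Lists of the other cells a head sample can hold moved less. Of 8 yolk sac endoderm genes 6 were above 0 (median 0.29, -0.14 without Control 1, the array with the highest level, 7.69), and of 12 primitive erythroid genes 10 were (median 0.41, 0.02 without CM-Het 3); 0 genes of either list were called in limma, and 0 and 2 were at an unadjusted p under 0.05. CM-CKO 1 had the highest erythroid level, 8.10, against 5.69 to 6.76 elsewhere. The part of these cells in the interaction of other genes was not tested beyond the covariates named. Signal from Xist was absent on 3 arrays, Het 3, CM-CKO 3 and CM-CKO 4, and without them 28 genes were called, Bgn, Ebf3 and Lum included.

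The gene groups of the head mesenchyme had a centre near 0, with few members called and more at an unadjusted p under 0.05. Of 33 extracellular matrix genes tested, 17 were above 0 and 16 below (median 0.01), with 3 called, Bgn, Lum and Tgfbi, all lower. In limma 9 of the 33 were at an unadjusted p under 0.05. Over all genes, 1.00% were called and 15.8% were at an unadjusted p under 0.05. Of 23 head mesenchyme transcription factors, 11 were above and 12 below (median -0.06), with Ebf3 called and 6 at an unadjusted p under 0.05. Of 19 mesenchymal surface and cytoskeleton genes, 8 were above and 11 below (median -0.08), with Cd248 called and 5 at an unadjusted p under 0.05. Of 10 genes of Twist1 and its dimer partners, 5 were above and 5 below, 0 were called and 3 were at an unadjusted p under 0.05, with Hand2 at -0.68 and near background and Tcf4, an E protein, at 0.27 (adjusted p = 0.248).

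Genes of endothelium, part of which descends from Mesp1-expressing cells, gave 10 above 0 and 13 below among 23 tested (median -0.04), 0 called in limma and 3 at an unadjusted p under 0.05. Cav1, which encodes caveolin-1, stood outside the threshold at -0.77 (adjusted p = 0.0664), as did Etv2, a factor of early endothelium, at -0.66 (adjusted p = 0.0714). Brain and neural tube genes gave 17 above and 10 below (median 0.05), with 0 called and 5 at an unadjusted p under 0.05. Neural crest genes gave 7 above and 6 below (median 0.15), with 0 called and 2 at an unadjusted p under 0.05. Of 14 anterior Hox and retinoic acid genes Cyp1b1 was called, and of 13 surface ectoderm genes Tfap2c (-0.62, adjusted p = 0.0486). The 53 ribosomal protein genes had a median of 0.03, 7 at an unadjusted p under 0.05 and 0 called. For endothelium, neural crest and ribosomal protein genes the unadjusted counts were near the 15.8% of all genes. The lists of gut endoderm, signalling readouts, p53 targets, hypoxia and glycolysis, and immediate early and heat shock genes had medians from -0.02 to 0.23 and 0 called, with 2, 3, 2, 1 and 2 genes at an unadjusted p under 0.05.

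**Figure D4:**
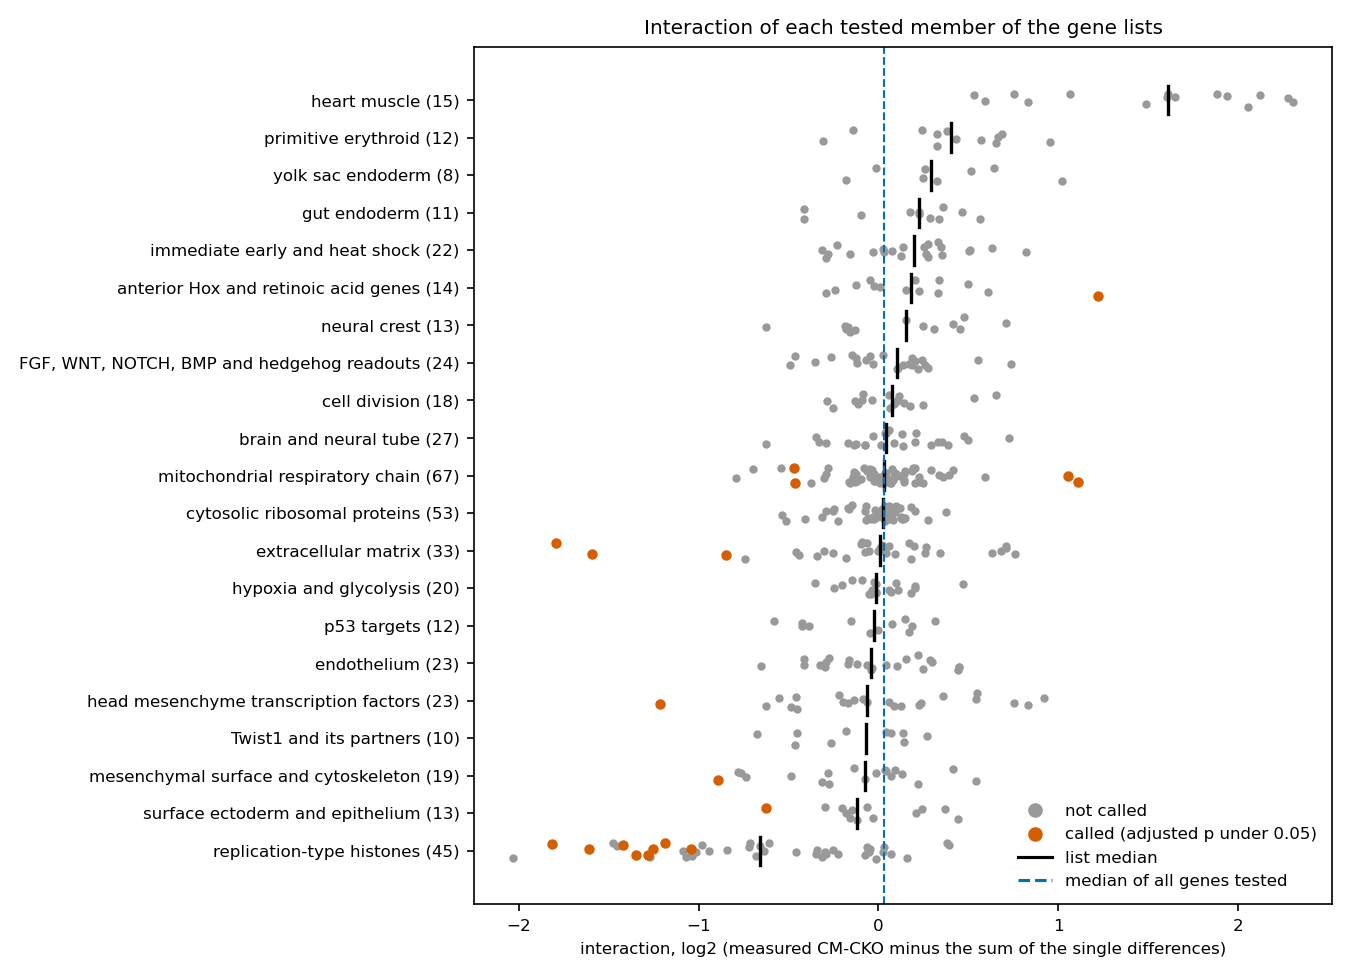
Interaction (log2, horizontal axis) of each tested member of the 21 gene lists, with the number tested in brackets; orange points were called, the black bar is the list median and the dashed line the median of all 11394 genes. Replication-type histones lie to the left (median -0.66) and heart muscle genes to the right (median 1.61), while the called matrix genes stand far from a list median of 0.01.

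The interaction subtracts 2 differences, both of which cross from beadchip 1 to the others, so that neither can be told apart from a difference of beadchips. CM-CKO differed from Het in 25 genes (0.219%), 5 higher and 20 lower, with a lowest adjusted p of 2.07e-06, and in 13 genes without Het 1 or without Het 2. CM-Het differed from Control in 47 genes (0.412%), 21 higher and 26 lower, with a lowest adjusted p of 0.0223. That count was 0 in limma without Control 3, CM-Het 1 or CM-Het 2, 1 without Control 1, and 5 to 59 without any other array. Within beadchip 1, CM-Het against Het gave 0 called genes in limma, with 451 at an unadjusted p under 0.05. Within beadchip 2, CM-CKO 1 and 2 against Control gave 27 called genes, and CM-CKO 3 and 4 against CM-CKO 1 and 2 gave 0, with 654 at an unadjusted p under 0.05.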

How the data were processed

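Total RNA of E8.5 heads was measured on 14 Illumina bead arrays. The authors deposited linear signal intensity per probe, not normalised, and a detection p-value beside it, per the file headers, and a second deposited table of log2 values, which equals the quantile-normalised log2 intensities to within 0.0329 (median 6.72) and served as an alternative. The software that made them is not given in the sources used here. The detection p-values were deposited out of row order (rank correlation with intensity -0.105 to -0.0946) and were put back by rank within each array; the restored values of 45261 of 45281 probes occur as 1 deposited row.

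Intensities were normalised with neqc (limma 3.58.1, R 4.3.3, offset 16). Probes with 3 or more arrays at a detection p under 0.05 were kept, and the brightest probe stood for each of 11394 genes. Of all probes, 34885 had 1 symbol, 18 several and 10378 none in the platform annotation. The 4 group means were fitted over all arrays in limma (lmFit, and eBayes with its trend option), and p-values were adjusted by Benjamini-Hochberg over all genes. Groups came from the genotype labels. The number of arrays limits the precision.

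Same-numbered arrays of different groups did not deviate together (4 of 18 pairs above a correlation of 0.1), so no pairing was used. The named genes were Twist1, the 15 largest called in each direction, genes called in CM-CKO against each other genotype, called genes with CM-CKO apart and, in each list, the called members and the 2 of smallest p; genes outside this rule are marked in the text. Members, lists and tests were chosen with earlier results of these data known. The fit was also run on simulated arrays with independent noise and no beadchip shift in the contrast. It called 28% of 100 genes given an interaction of size 0.5 and 77% of 100 given 1, with 4 false calls. That run cannot tell how a beadchip shift affects the calls.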

Additional observations from a re-analysis of the deposited data

Results flagged for a closer look

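Within a group of 4 arrays, 1 array lay far from the other 3 (a gap above the critical value of Dixon's test) in 8 of the 146 checks made on named genes; chance gives about 1 in 20 such checks. In Control, Gdnf measured 5.16 on Control 2, below 5.57 on the nearest array, and Hand2 measured 4.32 on the same array. Ldb3 measured 5.22 on Control 4, and Apob, an apolipoprotein of yolk sac endoderm, measured 7.65 on Control 1 against 5.51 on the next array. In CM-CKO, Rax measured 7.76 on CM-CKO 2, Ccng1 measured 8.08 on CM-CKO 3, Pfkl measured 12.9 on CM-CKO 1 and Dnajb1 measured 11.4 on CM-CKO 1. Of these genes, Gdnf and Ldb3 were called in the interaction, and Gdnf lost the call without any 1 of 9 of the 14 arrays, Control 2 not among them.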

How the results depend on the processing

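The count of genes called in the interaction (114) was 197 with every detected probe, 175 with array weights and 714 with a random block for beadchip. The correlation estimated for that block was negative (-0.0585), and the fit does not separate beadchip from interaction. It fell to 13 without the CM-CKO arrays of beadchip 2, to 20 with the replicate number as a block, to 70 with the heart muscle level as a covariate and to 28 without the arrays that lack Xist signal; leaving out 1 array at a time gave 22 (without CM-Het 1) to 96 (without CM-CKO 3). It stayed within 1.5 times, at 77 to 138, for the deposited table, offset 50, no filter, detection on all 14 arrays, no trend, the yolk sac covariate and without the CM-CKO arrays of beadchip 3. CM-CKO minus Het (25) gave 42 with array weights, 40 with the random block, 13 without the CM-CKO arrays of beadchip 3, 16 without those of beadchip 2, 13 without the arrays lacking Xist and 13 to 26 with 1 array left out. CM-Het minus Control (47) gave 20 without a filter, 78 with every probe, 23 without a trend, 110 with weights, 277 with the random block, 6 and 26 without the CM-CKO arrays of beadchips 3 and 2, 11 with the replicate block, 9 with the heart covariate, 8 without the arrays lacking Xist and 0 (without Control 3) to 59 with 1 array left out. Twist1 was -0.26 to -0.11 with 1 array left out and 66.2 intensity units on the linear scale, where the sum of differences is taken on another scale. Some settings also differ in the number of arrays or probes, and the cause of the changes in these counts was not tested. Of the values of named genes under all alternatives, 1592 kept direction and side of the threshold, 488 lost the call, 21 gained it and 1 turned sign. Signal near background limits the genes whose sum of single differences lies under the lowest detected signal.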
